A study of Sus scrofa with 21 samples.

Results

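The genes described here are the 7 subunits of respiratory complex I that are encoded in mitochondrial DNA: ND1, ND2, ND3, ND4L, ND4, ND5 and ND6. They were measured in whole blood of DD and LW pigs on a one-colour Agilent pig array. A probe was taken as a member when it was not a control and when its gene name or its description in the scanner output named one of the 7 subunits of the pig. This gave 56 of 60305 probes, 53 through the gene name and 3 through the description. All 56 passed the filter on dim probes, and the 7 genes were tested among 10418 named genes.

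Complex I is the entry enzyme of the respiratory chain. It takes electrons from NADH, hands them to ubiquinone and pumps protons across the inner mitochondrial membrane. The subunits encoded in mitochondrial DNA form the membrane arm, which carries the proton pump, while the subunits that bind NADH and the iron-sulphur clusters are encoded in the nucleus and imported. Mitochondrial DNA is transcribed as long precursors from both strands. ND6 is the only protein gene copied from the opposite strand, and the reading frames of ND4L and ND4 overlap on a shared messenger RNA. Mature mammalian red cells have lost their mitochondria, so in blood such transcripts come from reticulocytes, platelets and white cells.

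The DD pigs (SLAdd in the labels) are inbred minipigs of a line founded at the NIH and kept in France, homozygous at the SLA complex, the major histocompatibility complex of the pig. The LW pigs are Large White animals, a commercial breed, and were the controls. Animals of both breeds were 60 days old and received a standard diet ad libitum, with no other treatment. The 10 DD pigs came from 5 sows and the 11 LW pigs from 6 sows, with 1 array per pig. Every pig except LW_02 shared its sow with another pig of the set. DD stands for a single closed line, so that line, breed and inbreeding cannot be told apart.

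The arrays lay on 3 chips. Chip 1 carried 3 DD and 4 LW pigs, chip 2 carried 4 of each breed and chip 3 carried 3 of each. The methods of the study mention a technical bias of the last of these chips, and arrays judged to be outliers had been removed before deposit. Brightness, taken as each array's 75th percentile of processed signal in log2, was lower in DD pigs (6.56 to 8.49) than in LW pigs (7.37 to 8.62). The breed means differed in brightness (DD minus LW) by -0.07 on chip 1, whereas chips 2 and 3 had differences of -0.76 and -1.27. No spot was saturated. Of the defining markers of blood, HBB and ALAS2 of red cells, PPBP of platelets, S100A8 and CXCR2 of granulocytes, CD14 of monocytes, CD3E of T cells and MS4A1 of B cells were all named on the array and kept by the filter. PF4 of platelets had no named probe. The filter kept 10418 of 12165 named genes, so passing it does not identify the tissue.

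All 7 genes were higher in DD blood, by 0.49 to 1.17 on the log2 scale, and 6 of 7 passed an adjusted p of 0.05 in limma. Over all genes tested, 23.8% passed that threshold in either direction and 11.2% passed it with a higher value in DD pigs. The median log2 FC (DD minus LW) was 0.65 over the 7 genes and -0.06 over all genes. For each of the 7 genes at least 6 of 10 DD pigs lay above the highest LW pig, which was the case for 3.55% of all genes. None of the 7 separated the breeds completely, as 0.202% of all genes did. In whole blood, a change in the number of cells of a type and a change in RNA per cell cannot be told apart.

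These calls moved with the chips and with brightness. With brightness as a further covariate, 0 of 7 genes passed the adjusted threshold in limma and 3 had an unadjusted p under 0.05, while the number of calls over all genes went from 2476 to 241. The 7 differences stayed above 0 in that fit, between 0.09 (ND4L) and 0.83 (ND1 and ND2). Without chip 2 the number of members called was 3, without chip 3 it was 0 with 4 at an unadjusted p under 0.05, and without chip 1 it was 7. Over all genes, 1708 were called without chip 2, 114 without chip 3 and 2827 without chip 1. The scaling also mattered for the balance of all calls: scaling to the 75th percentile gave 1486 higher of 2310 called genes, against 1162 of 2476 here, and all 7 members were then called.

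In the order of their log2 FC, from ND2 through ND1, ND3, ND5, ND4 and ND4L to ND6, neighbours differed by no more than the SE of either, apart from ND3 and ND5, and differences between genes were not tested.

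ND2, an antiporter-like subunit of the membrane arm, had the largest estimate among the 7. With the chip effect removed, its log2 value ran from 10.44 to 11.90 in DD pigs, with a median of 11.32, and from 9.31 to 10.58 in LW pigs, with a median of 10.25. Only the 2 lowest DD pigs, DD_08 and DD_06, fell within the LW range. The log2 FC was 1.17 (SE 0.19, adjusted p = 0.000400 in limma), a 2.25-fold higher signal. Averaged by litter, all 5 DD litters lay above all 6 LW litters (two-sided exact permutation test over the 462 divisions of the litters, p = 0.00216, the smallest it can give).

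ND1, the subunit that joins the membrane arm to the hydrophilic arm, behaved alike. Its log2 value ran from 12.25 to 13.81 in DD pigs (median 13.19) and from 11.44 to 12.53 in LW pigs (median 12.13), and 9 of 10 DD pigs were above every LW pig. The log2 FC was 1.10 (SE 0.19, adjusted p = 0.00100 in limma), and the 5 DD litters again lay above the 6 LW litters (exact permutation p = 0.00216). ND3, a small subunit of the junction between the arms, ran from 12.43 to 13.63 in DD pigs (median 12.97) and from 11.00 to 12.85 in LW pigs (median 12.14). For this gene 6 DD pigs were above every LW pig and the ranges overlapped through the highest LW pigs. The log2 FC of ND3 was 0.93 (SE 0.21, adjusted p = 0.00590 in limma; exact permutation of litters, p = 0.00433).

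The estimates were smaller in the 3 genes that follow ND3 on the mitochondrial DNA. ND4 and ND5 encode the large antiporter-like subunits at the far end of the membrane arm. The log2 value of ND4 ran from 10.30 to 11.92 in DD pigs (median 11.21) and from 9.94 to 10.88 in LW pigs (median 10.60), with a log2 FC of 0.62 (SE 0.18, adjusted p = 0.0233 in limma; exact permutation of litters, p = 0.00866). The log2 value of ND5 ran from 10.45 to 12.24 in DD pigs (median 11.42) and from 10.16 to 11.22 in LW pigs (median 10.78), with a log2 FC of 0.65 (SE 0.21, adjusted p = 0.0316 in limma; exact permutation of litters, p = 0.0130). In both genes 7 DD pigs stood above every LW pig, and the other 3 were below the LW median.

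ND4L, a small hydrophobic subunit, did not pass the threshold. Its log2 value ran from 10.20 to 11.96 in DD pigs (median 11.38) and from 9.90 to 11.21 in LW pigs (median 10.66), and the difference was 0.55 with a 95% interval from 0.12 to 0.97 (adjusted p = 0.0545 in limma; exact permutation of litters, p = 0.0368). Leaving out chip 1 or changing the scaling, the background offset or the probe summary put it on the other side of the threshold. It was read by a single probe, shown here because the gene rests on it alone, and 6 of 10 DD pigs were above every LW pig.

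A_72_P442199: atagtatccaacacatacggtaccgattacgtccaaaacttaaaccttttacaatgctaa

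ND6, the subunit encoded on the opposite strand, had the smallest estimate. Its log2 value ran from 9.68 to 10.58 in DD pigs (median 10.21) and from 9.10 to 9.94 in LW pigs (median 9.75). The log2 FC was 0.49 (SE 0.12, adjusted p = 0.0112 in limma), 8 DD pigs were above every LW pig, and the 5 DD litters lay above the 6 LW litters (exact permutation p = 0.00216). This mean hides a disagreement between the 2 probes of the gene, described further on.

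**Figure D1:**
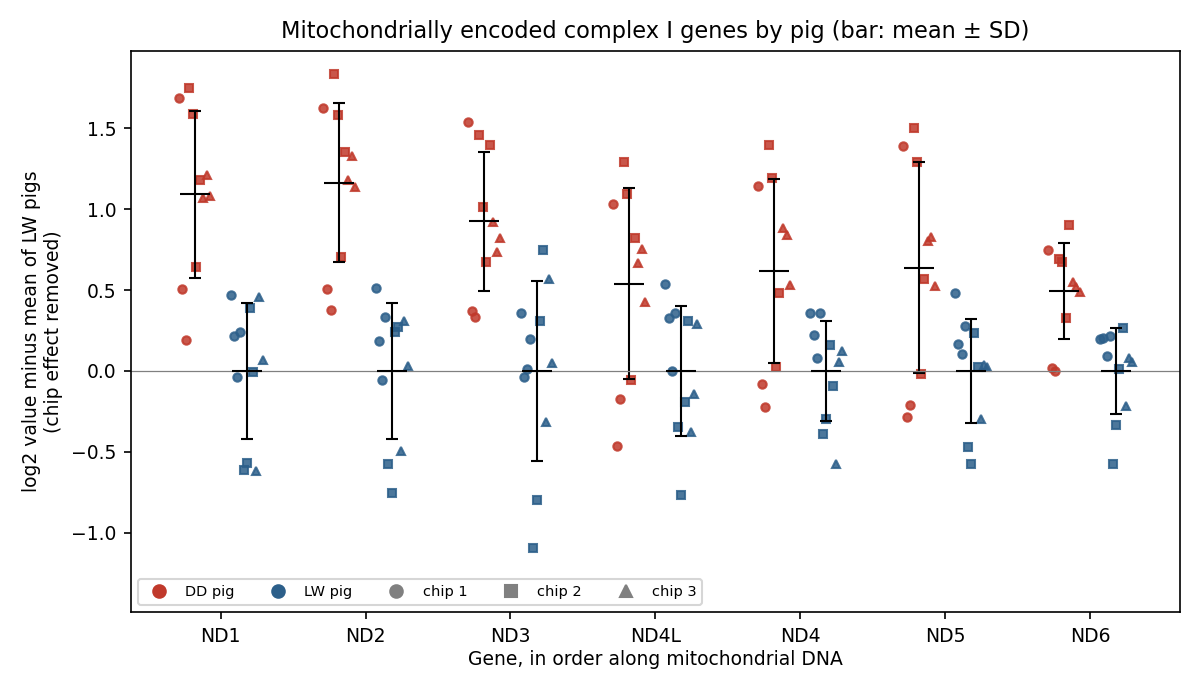
Log2 value of each gene in each pig (vertical axis, chip effect removed, minus the mean of the LW pigs), with the genes in their order along mitochondrial DNA on the horizontal axis. Points are pigs (red DD, n = 10; blue LW, n = 11), shapes are chips and bars are mean ± SD. DD points lie mostly above the LW points in every gene, and in ND4L, ND4 and ND5 the same low DD pigs reach below the LW mean.

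The plot of values by pig shows that the same DD animals were high or low in each gene. DD_01, DD_10, DD_11, DD_16 and DD_19 were above the highest LW pig for all 7 genes, and DD_21 and DD_23 for 6 of 7. DD_13 exceeded it for 3 genes, DD_06 for 1 and DD_08 for 0. The mean over the 7 genes ran from 10.87 (DD_08) to 12.25 (DD_10) in DD pigs and from 10.24 (LW_12) to 11.25 (LW_02) in LW pigs, and 7 of 10 DD pigs were above all LW pigs.

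Within breeds and chips the genes rose and fell together across animals. After removal of breed and chip means, the Pearson correlation between pairs of the 7 genes over the 21 arrays ranged from 0.65 (ND3 with ND4) to 0.97 (ND1 with ND2). These are descriptions, since the values share arrays and a common normalization. The correlation of the mean over the 7 genes with the mean of the 6 other protein genes of mitochondrial DNA was 0.93, and with brightness it was -0.49.

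The breed difference varied from chip to chip. On chip 1 it was 0.57 in ND1, 0.59 in ND2 and 0.61 in ND3, but 0.08 in ND6, 0.04 in ND5, 0.03 in ND4 and -0.17 in ND4L. On chip 2 it ranged from 0.81 (ND6) to 1.57 (ND2), and on chip 3 from 0.55 (ND6) to 1.27 (ND2). Chip 1 was the one where brightness was closest between breeds and where the differences of all 7 genes were smallest. Chip 3 had the widest gap in brightness (-1.27), but the differences of all 7 genes were smaller there than on chip 2 (-0.76). A part of brightness in these differences was not tested.

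In the 4 genes with differences near 0 on chip 1, a single DD pig there exceeded all the LW pigs of that chip. For ND1 the deposited values on chip 1 ran from 12.58 to 14.07 in 3 DD pigs and from 12.35 to 12.86 in 4 LW pigs, with 2 DD pigs above all the LW pigs. ND1, ND2 and ND6 separated the breeds completely on chips 2 and 3, and ND3, ND4, ND4L and ND5 did so on chip 3 alone. With so few pigs of each breed on a chip, complete separation arises easily. The share of all genes that separated on single chips was not computed, so these counts are descriptions only. A test of the difference between chips, the breed by chip interaction in limma, called 0 of 10418 genes, with 1603 at an unadjusted p under 0.05 and a lowest adjusted p of 0.302. Among the members, ND4L and ND6 were under that unadjusted value, and their adjusted p were 0.314 and 0.323.

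**Figure D2:**
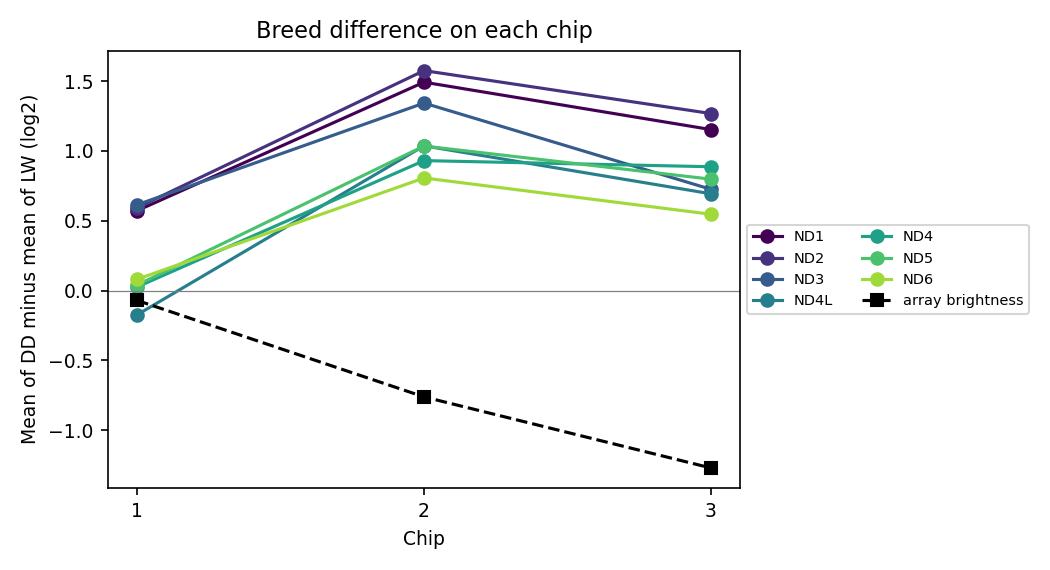
Difference between the breed means (DD minus LW, log2, vertical axis) on each of the 3 chips (horizontal axis) for the 7 genes (coloured lines) and for array brightness (dashed black line). Lines join the values of a gene and carry no time order. Every gene lies above 0.5 on chips 2 and 3, whereas 4 of 7 lie near or below 0.1 on chip 1. Brightness differed by -0.07 on chip 1, -0.76 on chip 2 and -1.27 on chip 3.

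The probes gave a finer view. Of the 56 member probes 49 were called and all 49 were higher in DD pigs, against 21.7% of 45228 probes called in either direction and 11.0% called higher. Each of the 56 estimates was above 0, from 0.06 to 1.95 with a median of 0.91. Called probes numbered 19 of 20 in ND1, 15 of 15 in ND2, 3 of 3 in ND3, 8 of 12 in ND4, 0 of 1 in ND4L, 3 of 3 in ND5 and 1 of 2 in ND6. For 47 of the 56 probes at least 6 DD pigs were above every LW pig, as for 3.41% of all probes. On every array 53 of the 56 were well above background. The exceptions were O13734 and A_72_P257802 for ND2 and A_72_P033616 for ND4. Many of these probes overlap in sequence and read the same transcript, so they are not independent measurements.

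Complete separation of the breeds, with every DD pig above every LW pig, was seen in 4 probes, all of ND2. Over the whole array it was seen in 0.175% of probes. Their log2 FC were 1.44 (A_72_P766062), 1.44 (A_72_P726683), 1.95 (A_72_P737152) and 1.64 (A_72_P719508). The probe A_72_P737152 had the largest difference of all 56, at 11.53 ± 0.70 (SD, n = 10) for DD and 9.59 ± 0.62 (SD, n = 11) for LW. It was higher in DD pigs by 1.40 on chip 1, 2.42 on chip 2 and 1.94 on chip 3, and its sequence is given for that reason.

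A_72_P737152: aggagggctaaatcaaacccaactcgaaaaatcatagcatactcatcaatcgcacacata

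In 3 genes with probes spread along the transcript, the difference between breeds was set against the position of the probe. In ND1 the 4 probes that start at bases 68 to 410 had log2 FC of 1.59 to 1.84, with a median of 1.73, and the 16 that start at bases 520 to 897 had 0.47 to 1.28, with a median of 0.93. The 4 were also dimmer, with mean log2 values in LW pigs of 7.67 to 10.16 against 11.06 to 13.98, so position and signal level go together. Those that start at bases 393, 400 and 410 overlap each other. This split of the ND1 probes was made after the values had been seen and carries no test.

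A comparison of slopes was added after this, on the same pigs and for ND1 on the same probes, so its p-values are descriptive. A slope of log2 value on position was fitted in each pig. It used the 20 probes of ND1, 12 of 15 of ND2 and 10 of 12 of ND4, leaving out O13734 and O5353, which have no position, and the 3 probes joined by description, namely A_72_P379563 and A_72_P257802 of ND2 (log2 FC 0.90 and 0.71) and A_72_P033616 of ND4 (0.41). Averaged by litter, it was lower in DD pigs by -0.11 per 100 bases in ND1 (exact permutation p = 0.0649), by -0.05 in ND2 (exact permutation p = 0.0238) and by -0.02 in ND4 (exact permutation p = 0.0216). After adjustment over these 3 genes the p-values were 0.0649, 0.0357 and 0.0357. Slopes differed in the same direction in 60.8% of 418 other transcripts with at least 3 probes over 300 bases, with a median of -0.004 and a range from the 5th to the 95th percentile of -0.07 to 0.05. The differences of ND2 and ND4 lay within that range, and that of ND1 lay below it. Leaving out single probes raised the p of ND2 to as much as 0.0628 and that of ND4 to as much as 0.136.

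**Figure D3:**
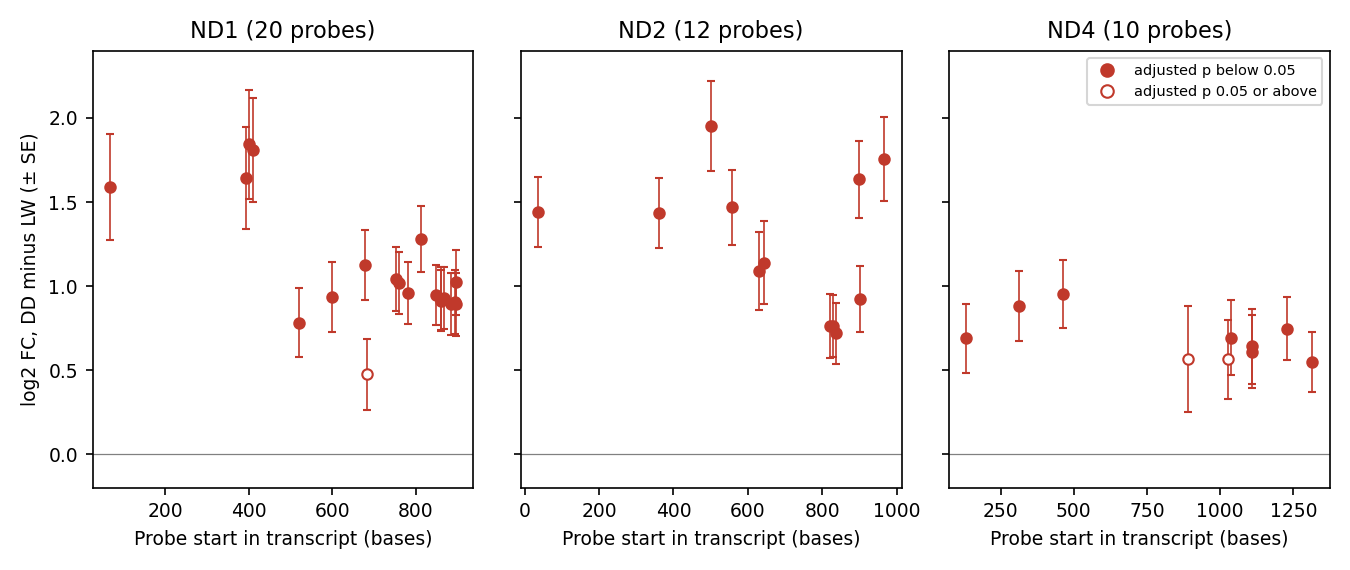
Log2 FC (DD minus LW, vertical axis, bars are ± SE) of the 20 probes of ND1, 12 of 15 of ND2 and 10 of 12 of ND4 that bear the gene name and have a position, against the base of the transcript at which the probe starts (horizontal axis). Filled points have an adjusted p below 0.05 in limma. In ND1 the 4 probes nearest the start lie between 1.59 and 1.84 and the rest below 1.3, ND2 probes of similar position differ by up to 0.7, and the 10 ND4 probes lie between 0.55 and 0.95.

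Probes of one gene that overlapped in sequence, many of them only in part, mostly gave similar differences, with exceptions. Among 36 pairs of probes of one gene that share at least 30 aligned bases, the size of the gap between their breed differences had a median of 0.04, and in 3 pairs it was above 0.3. Those 3 pairs are printed below, because within their overlap they differ by only a few bases. Capitals mark bases inside the overlap that have no match in the partner, and the overhanging ends, which the partner does not cover, are in lower case.

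A_72_P719508 (ND2): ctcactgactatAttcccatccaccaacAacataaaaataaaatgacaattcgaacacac

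A_72_P727968 (ND2): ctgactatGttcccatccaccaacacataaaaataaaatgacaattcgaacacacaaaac

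A_72_P757573 (ND1): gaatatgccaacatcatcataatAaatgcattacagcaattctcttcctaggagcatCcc

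A_72_P758032 (ND1): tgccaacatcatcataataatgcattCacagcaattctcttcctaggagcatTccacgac

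A_72_P257802 (ND2): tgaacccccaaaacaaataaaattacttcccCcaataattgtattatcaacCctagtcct

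A_72_P442176 (ND2): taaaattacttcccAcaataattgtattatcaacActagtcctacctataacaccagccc

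In the first pair the log2 FC was 1.64 for A_72_P719508 and 0.92 for A_72_P727968. The log2 value of the former minus that of the latter was -0.80 ± 0.10 (SD, n = 10) for DD and -1.52 ± 0.30 (SD, n = 11) for LW, and this within-array difference differed between the breeds by litter (exact permutation p = 0.00433, adjusted over the 36 pairs 0.0390). In the ND1 pair, A_72_P757573 had a log2 FC of 1.13 and was called, whereas A_72_P758032 had 0.47 and was not. Their within-array difference was -0.17 ± 0.11 (SD, n = 10) for DD and -0.83 ± 0.32 (SD, n = 11) for LW (exact permutation p = 0.00866, adjusted 0.0519).

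The pair of A_72_P257802 and A_72_P442176 showed the widest gap, with log2 FC of 0.71 and 1.76 (exact permutation p = 0.0130, adjusted 0.0668). A_72_P257802 was not well above background on all arrays. In all, 4 of 36 pairs passed the adjusted threshold and 13 had an unadjusted p under 0.05. The 4 were A_72_P719508 with A_72_P727968, and A_72_P730638 of ND1 with each of A_72_P225927, A_72_P775064 and A_72_P741454. The pairs that share A_72_P730638 had gaps of only 0.12 to 0.13. Which of the printed bases the DD or LW animals carry was not analysed here, as no reads or genotypes of these pigs were used.

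The 2 probes of ND6 gave different answers. They are printed with G and T in capitals, because the strand of a mitochondrial transcript shows in that share.

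A_72_P442203: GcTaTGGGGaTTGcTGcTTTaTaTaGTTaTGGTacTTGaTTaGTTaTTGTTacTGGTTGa

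O2495: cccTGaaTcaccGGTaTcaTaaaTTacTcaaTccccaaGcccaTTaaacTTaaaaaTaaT

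In A_72_P442203, which the array places in the ND6 transcript, 71.7% of the bases were G or T. In 47 probes of the other 6 genes that have a position in their transcript, the share was 23.3% to 50.0%, with a median of 35.0%. O2495, which bears the name of ND6, had 31.7%, within the range of the other 6 genes. Its strand was read from composition alone and was not checked against a mitochondrial genome.

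For A_72_P442203 the log2 value, chip effect removed, ran from 8.07 to 8.79 in DD pigs (median 8.31) and from 7.79 to 8.61 in LW pigs (median 8.34), so that the ranges overlapped nearly throughout. Its log2 FC was 0.06, with a 95% interval from -0.18 to 0.31 (adjusted p = 0.727 in limma; exact permutation of litters, p = 0.684). The 3 DD pigs of chip 1 had lower values than any of the 4 LW pigs there, with a difference of -0.35. It was 0.25 on chip 2 and 0.28 on chip 3.

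O2495 ran from 11.26 to 12.73 in DD pigs (median 12.06) and from 10.16 to 11.72 in LW pigs (median 11.19), with 6 DD pigs above every LW pig. Its log2 FC was 0.93 (SE 0.21, adjusted p = 0.00567 in limma; exact permutation of litters, p = 0.00433), close to that of ND3. The value of O2495 minus that of A_72_P442203 was 3.66 ± 0.51 (SD, n = 10) for DD and 2.79 ± 0.57 (SD, n = 11) for LW, and by litter it differed between breeds by 0.84 (exact permutation p = 0.0238). With the 3 probes of other composition or strand and 1 fold-back probe left out, a choice made after seeing the data, ND6 rested on A_72_P442203 alone, with a log2 FC of 0.06 (adjusted p = 0.705 in limma), and 5 of 7 genes were called. The call of ND6 therefore rested on O2495.

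**Figure D4:**
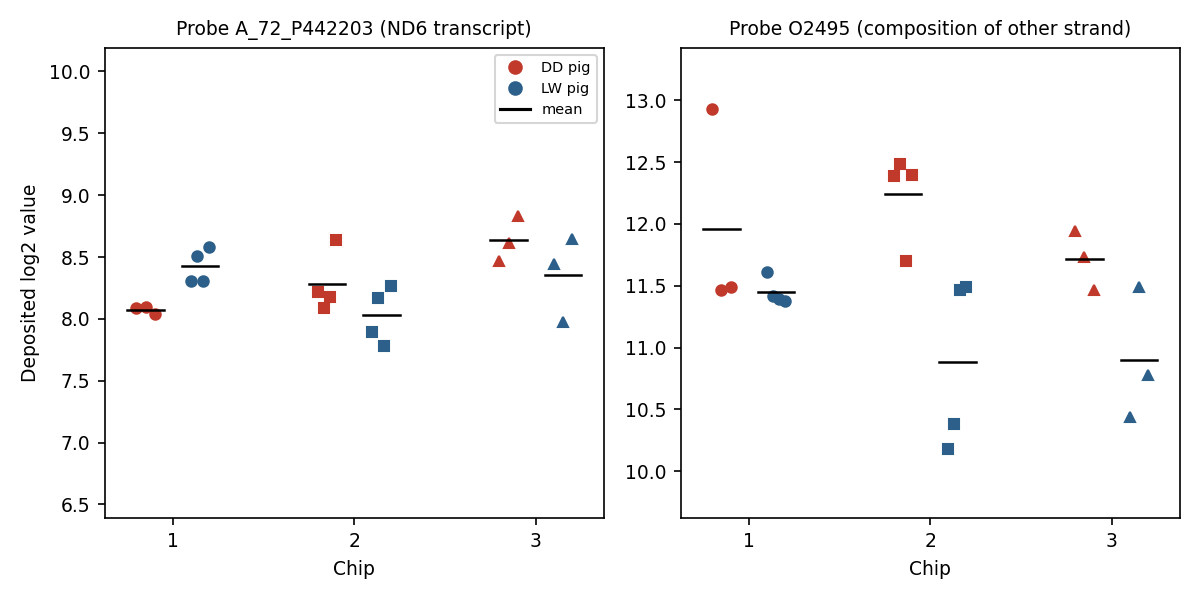
Deposited log2 value (vertical axis, the same span but a different range in each panel) of the ND6 probes A_72_P442203 (left) and O2495 (right) in each pig, by chip (horizontal axis), with DD in red, LW in blue and the mean as a bar. In the left panel DD pigs lie below LW pigs on chip 1 and the groups overlap on chips 2 and 3, and in the right panel the DD mean is higher on every chip.

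Other probes with signs of the opposite strand gave mixed values. O13734 carries the name of ND2, and 47 of its bases, in capitals below, are the reverse complement of a run in A_72_P719508. It was well above background on 9 of 10 DD arrays and 8 of 11 LW arrays, and its log2 FC was 0.85 (adjusted p = 0.00422 in limma). O5353, named for ND4 with 56.7% G or T, had a log2 FC of 0.19 (adjusted p = 0.267 in limma).

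O13734: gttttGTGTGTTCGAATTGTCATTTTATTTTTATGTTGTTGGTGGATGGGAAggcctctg

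The array also held 84 probes whose description names such a subunit of another species. They were not counted as members. Of the 57 that passed the filter 11 were called (19.3%), 5 of them higher, with a median log2 FC of -0.03, and 0 of the 84 shared a run of 14 bases with a member probe.

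The other protein genes of mitochondrial DNA encode subunits of complexes III, IV and V. Of these 6 genes 5 were called, each of them higher, and the median log2 FC was 0.83. The values were 1.21 for COX2, 0.87 for ATP8, 0.84 for ATP6, 0.81 for COX1 and 0.69 for COX3, and CYTB had 0.49 (adjusted p = 0.0977 in limma). With brightness as a covariate COX2 (1.10) and COX1 (0.74) stayed called, and ATP8 (0.48), ATP6 (0.61) and COX3 (0.63) did not. The 7 complex I genes (median 0.65) thus lay within the range of their neighbours on the same molecule.

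The nuclear genes of complex I did not follow. Of the nuclear core subunits, which carry the electron path, 0 of 5 were called higher and 1 lower, namely NDUFS3 with a log2 FC of -0.26. Of the accessory subunits, which surround the core, 0 of 27 were called higher and 5 lower. The lowest were NDUFA12 (-0.69), NDUFA7 (-0.57) and NDUFC2 (-0.46). Over both lists 28 of 32 genes were below 0, with a median of -0.22 against -0.06 for all genes, and 6 were called lower where 12.6% of all genes were. Complex I assembly factors gave 0 higher and 3 lower of 10, with NDUFAF4 at -0.60, TMEM126B at -0.29 and TMEM70 at -0.26. NDUFS3 and TMEM126B lost their calls under scaling to the 75th percentile. With brightness as a covariate NDUFA12 (-0.53) and NDUFA7 (-0.48) kept theirs, whereas NDUFS3 (-0.22), NDUFC2 (-0.16), NDUFAF4 (-0.32), TMEM126B (-0.11) and TMEM70 (-0.17) did not.

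On each array the mean of the 7 mitochondrial genes minus the mean of the 32 nuclear genes was formed, with the chip effect removed. This difference ran from 1.03 to 2.63 in DD pigs (median 2.06) and from 0.27 to 1.49 in LW pigs (median 1.12), and 7 of 10 DD pigs were above every LW pig. The breed means were 1.93 ± 0.52 (SD, n = 10) and 0.95 ± 0.40 (SD, n = 11). Only the contrast between arrays can be read from these values, since probes of different genes differ in brightness.

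**Figure D5:**
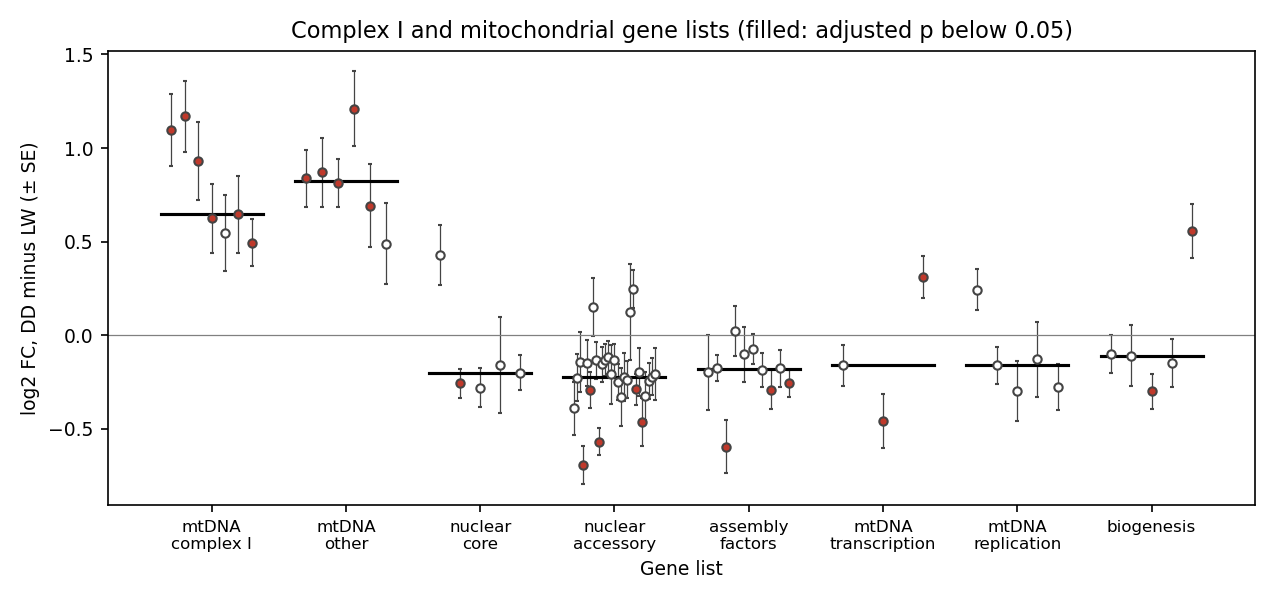
Log2 FC (DD minus LW, vertical axis, bars are ± SE) of single genes in 8 lists (horizontal axis), with the list median as a black line and filled points for an adjusted p below 0.05. The axis shows the 7 genes described here and the 6 other genes of mitochondrial DNA above 0, and the nuclear complex I lists centred near -0.2.

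Genes that act on mitochondrial DNA and RNA gave calls in both directions, where 23.8% of all genes were called. Of 3 transcription genes tested, TFB1M, a mitochondrial rRNA methyltransferase, was higher (0.31), TFAM, which packages mitochondrial DNA and starts its transcription, was lower (-0.46), and MTERF3 had -0.16 (adjusted p = 0.277 in limma). Of 5 replication genes 0 were called in limma, with 2 at an unadjusted p under 0.05. Of 13 genes for the processing and decay of mitochondrial RNA 2 were called, both higher: REXO2, an oligoribonuclease (3.96), and HSD17B10, a subunit of mitochondrial RNase P (0.69). Of 5 regulators of mitochondrial biogenesis PPRC1 was higher (0.56) and GABPB1 lower (-0.30). With brightness as a covariate REXO2 kept its call (3.11), whereas TFB1M (0.27), TFAM (-0.14), HSD17B10 (0.06), PPRC1 (0.10) and GABPB1 (-0.16) lost theirs in limma.

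Markers of red cells and T cells also differed between the breeds. Of 20 red cell and reticulocyte markers 11 were called, each of them higher, where 11.2% of all genes were called higher. Their median log2 FC was 0.56. Their mean log2 level ran from 10.18 to 11.34 in DD pigs and from 9.91 to 11.10 in LW pigs. Of 12 T cell markers 4 were called lower, where 12.6% of all genes were, and 0 higher. Their median log2 FC was -0.44, and their mean level ran from 7.54 to 8.60 in DD pigs and from 8.06 to 9.14 in LW pigs. Of 12 platelet markers 1 was called, PPBP (-0.93), and the mean level ran from 7.85 to 9.21 in DD pigs and from 8.25 to 9.23 in LW pigs. Granulocyte markers gave 1 higher call of 9, monocyte markers 1 higher and 1 lower of 9, and B cell markers 1 higher of 7. These and the platelet markers were called no more often than the 23.8% of all genes. With brightness as a covariate, calls over all the cell marker lists and the mitochondrial lists other than the members went from 40 to 8 of 143 genes. Over all genes they went from 2476 to 241.

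Within breed and chip, the mean of the 7 genes had a Pearson correlation over the 21 arrays of 0.04 with the red cell markers, 0.64 with the platelet markers, -0.14 with the T cell markers and -0.74 with the 3 transcription genes. No p is given for these descriptions. The part of cell composition in the breed difference of the 7 genes was not tested.

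Among 10405 genes outside mitochondrial DNA, the pattern over the 21 arrays, breed and chip means removed, was closest to the mean of the 7 genes in DYNLRB1 (r = 0.81), RHOC (0.80), CAB39 (0.79), COL13A1 (0.76) and LOC733637 (0.76). It was most opposed in KCTD5 (-0.83), AMBRA1 (-0.79) and RLF (-0.77). Of these 8 genes RLF was called between the breeds, with a log2 FC of -0.69 (adjusted p = 0.0161 in limma).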

How the data were processed

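RNA of PAXgene blood was labelled with Cy3 from 50 ng (one-colour Low Input Quick Amp) and read with Agilent Feature Extraction 10.7.3.1. The deposited scanner files hold spot and background intensity per probe, with flags and scores for signal well above background. The deposited log2 matrix was made by the authors (background corrected, put on a log2 scale, quantile normalized) and supplied all values unless stated. It correlated with a recomputed version at 0.9984 to 0.9994 per array. No column was left unmapped.

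The 25% of probes with the lowest mean were removed (45228 kept) and the probes of a gene averaged. Names (25646 probes, 12165 genes) came from scanner-file symbols and accessions and the tables of RefSeq (Sscrofa11.1) genes. No mitochondrial sequence was used. Averages of different probes may disagree, as stated for ND6. Many list genes, such as PF4, had no named probe.

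Breed was fitted in limma 3.58.1 (R 4.3.3, statmod 1.5.0) with chip as a fixed effect and sow as a random block (consensus correlation -0.0995 for genes), eBayes and Benjamini-Hochberg adjustment over all features, at an adjusted p of 0.05. The consensus correlation was negative, and without the sow block 1862 genes were called in limma, against 2476 with it. ND4L then had an adjusted p of 0.0793 in limma, and 6 members were called in both fits. Sow and chip came from the study's sample description. Siblings share a sow, so litter means, chip effect removed, were also compared by exact two-sided permutation over 462 divisions. Descriptions used Python 3.11.15 (pandas 2.3.3) and figures matplotlib 3.10.9. Precision is limited by the number of arrays, 21.

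Genes named are all members, up to 3 called genes per direction of each list (every tested gene of 3 short lists), and the 5 most similar and 3 most opposed genes. Members and lists were chosen with earlier results of these data known. In simulated data with 10418 genes, 43 of 100 genes changed by 0.5 log2 and 92 of 100 changed by 1 were recovered, with 10 unchanged genes called, and 0 were called with no change put in. The simulated noise was normal and independent between genes and arrays, with no litter effect and no brightness difference between breeds. It therefore cannot show how many of the calls in the real data are false. Fits were repeated with other background correction, scaling, filters, probe summaries, gene names, covariates and variance models, and without each chip or animal.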

Additional observations from a re-analysis of the deposited data

How the results depend on the processing

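The estimates of all 7 genes stayed above 0 in each of the 39 alternatives per gene, with log2 FC of 0.83 to 1.32 for ND1, 0.83 to 1.41 for ND2, 0.64 to 1.12 for ND3, 0.32 to 0.87 for ND4, 0.09 to 0.87 for ND4L, 0.31 to 0.90 for ND5 and 0.06 to 0.93 for ND6. The lowest values of ND4L (brightness as a covariate, adjusted p = 0.968 in limma) and ND6 (without O2495, adjusted p = 0.705 in limma) show no difference between the breeds. The calls in limma held less well. The number of members called, 6 as reported, was 3 without chip 2 (5 at an unadjusted p under 0.05), 0 without chip 3 (4 unadjusted) and 0 with brightness as a covariate (3 unadjusted). Over all genes 1708 were called without chip 2, 114 without chip 3 and 241 with brightness, against 2476. Called member probes went from 49 to 31 without chip 2 and to 7 without chip 3. Over all probes, calls fell as well, from 9809 to 6988 without chip 2 and to 649 without chip 3. Called genes of the other mitochondrial lists went from 20 to 6 with brightness. The cause was not tested. The estimate of the ND6 probe A_72_P442203 changed sign to -0.094 without chip 2 and -0.015 without chip 3. Without the chip term 4 members were called.

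Leaving out 1 animal at a time gave 4 to 7 members called. ND4 and ND5 lost their calls without DD replicate 21 or LW replicate 18, and ND5 without DD replicate 1, 10 or 19 or LW replicate 9, 12 or 22. ND4L was called without DD replicate 6, 8 or 13 or LW replicate 2 or 15. Over all genes, 863 were called without LW replicate 18, 1158 without DD replicate 21, 1505 without LW replicate 22, 1543 without DD replicate 23 and 3989 without DD replicate 6. Recomputed normexp, scaling to the 75th percentile, an offset of 50, cyclic loess, the filter on signal well above background and the probe with the highest mean each gave 7 members called. Higher calls were 1486 of 2310 with 75th percentile scaling and 1449 of 2204 with cyclic loess, against 1162 of 2476. No filter, scanner-file names, no sow block, trend and robust fitting, litter means and omission of the probes joined by description, added later, each gave 6. No paired analysis was possible because no replicate number is shared between the breeds.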
